A study of Rattus norvegicus with 6 samples.

Results

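The genes of the circadian clock were followed in rat neonatal cardiomyocytes in primary culture, as the rows of the gene count table named after 10 clock genes (Arntl, Clock, Per1, Per2, Per3, Cry1, Cry2, Nr1d1, Nr1d2 and Dbp) among 43035 features in all. A further 6 transcripts, listed as unannotated in the authors' table and overlapping one of these genes on its own strand, were read beside them. The cells came from the hearts of Sprague-Dawley rats, on postnatal day 1 by the labels, while the study's methods allow an age of 1 or 2 days. In 3 libraries they had received a scrambled siRNA (si-NC) and in the other 3 an siRNA against the kinase DYRK1A (si-DYRK1A), and all were collected 48 h after transfection. No genotype, drug or second time point separated the groups, and the phase of a rhythm and the level of a transcript cannot be told apart at a single time. The labels call the 3 libraries of each group biological replicates without naming the animals or cultures, so the spread between libraries is the only error available.

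The mammalian clock is a feedback loop of transcription. CLOCK and BMAL1 (the product of Arntl) form a dimer that binds E-boxes and activates the Per and Cry genes, and the PER and CRY proteins return to the nucleus to repress that dimer. A second loop runs through REV-ERB alpha and beta (Nr1d1 and Nr1d2), which repress Arntl, while DBP, itself driven by E-boxes, activates genes that hold D-boxes. In the heart this clock is known to time the expression of metabolic and ion channel genes. DYRK1A is known to phosphorylate CRY2 and to prime it for GSK3B and degradation, which is a step on the protein and not on the transcript measured here.

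The libraries held 10325074 to 11921772 counts, of which 17.2% to 17.5% lay on unannotated transcripts. The annotated Dyrk1a row (ENSRNOG00000001662) held 4 counts over the si-NC libraries and 3 over the si-DYRK1A libraries. CPM below are counts scaled by library size and a TMM normalization factor. The unannotated transcript that covers the Dyrk1a row (chr11:34840290-34959417, plus strand, Rnor_6.0) was at 77.7 ± 3.22 CPM (SD, n = 3) in the si-NC group. In the si-DYRK1A group it was at 82.4 ± 2.70 CPM, a difference of 0.08 on the log2 scale (adjusted p = 0.374, edgeR). The targeted transcript was therefore not lower in the mean. The study read the efficiency of the knockdown on DYRK1A protein, by immunoblot 48 h after transfection, which is a different measure. The groups are named below as the libraries are labelled. Of the cardiomyocyte markers, Actc1, Nppa and Pln rose (3 of 5 tested) and the rows of Myh6, Myh7 and Tnni3 were at 0, with a summed level of 19152 to 19623 CPM in the si-NC libraries and 22195 to 23076 CPM in the si-DYRK1A libraries. Among fibroblast markers Lum and Postn rose and Pdgfra was at 0 (2 of 6 tested; 21531 to 26245 against 20368 to 21107 CPM), and among endothelial markers Tek, Tie1 and Cdh5 fell (3 of 6 tested). These shares stand beside 8.03% of all features tested that were higher and 7.19% that were lower. No annotated row of a smooth muscle or pericyte marker (0 of 2 tested, Myh11 and Acta2 at 0, 685.9 to 719.6 against 708.6 to 727.5 CPM) or of macrophages (0 of 4 tested, Cd68 at 0, 121.4 to 130.8 against 112.3 to 124.3 CPM) passed the edgeR test. At an unadjusted p below 0.05 these counts were 0 and 2, and DESeq2 called 0 of either list. With the counts of unannotated transcripts added, the pericyte marker Rgs5 rose from 44.8 ± 3.83 CPM to 66.1 ± 2.62 CPM (SD, n = 3; log2 fold change 0.56, adjusted p = 1.16e-05, edgeR), 1 of 3 loci of that list, and Dcn joined Lum and Postn among the fibroblast markers that rose. Erythroid markers were below the filter, at 0.575 to 1.25 CPM in the si-NC group and 0.519 to 0.848 CPM in the si-DYRK1A group. The marker rows at 0 (Myh6, Myh7, Tnni3, Pdgfra, Myh11, Acta2 and Cd68) each lie under an unannotated transcript. A 0 there does not show that the gene was silent. The summed cardiomyocyte level was mostly Actc1 (mean 9976 CPM in the si-NC group) and Nppa (7557 CPM).

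The clearest difference among the clock genes lay within the Period family, where Per1 was lower and Per2 was not called. The region upstream of the gene start is therefore shown for Per1, for Per3, whose summed counts were also lower, and for Per2. These are the 250 bases before the RefSeq start on the gene's strand, in build GRCr8, which is not the build of the count table. The windows lie at chr10:54304126-54304375 (plus strand) for Per1, chr5:166777801-166778050 (minus strand) for Per3 and chr9:99496994-99497243 (minus strand) for Per2. Capitals mark matches, on either strand, to an E-box (CACGTG), an E-prime box (CACGTT), a cAMP response element (TGACGTCA), a D-box (TTANGTAA) or a ROR element (TNGGTCA).
Per1: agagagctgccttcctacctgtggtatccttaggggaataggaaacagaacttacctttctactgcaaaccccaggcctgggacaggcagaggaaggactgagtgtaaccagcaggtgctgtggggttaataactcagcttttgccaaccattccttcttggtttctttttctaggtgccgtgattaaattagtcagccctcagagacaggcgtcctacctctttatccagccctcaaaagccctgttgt
Per3: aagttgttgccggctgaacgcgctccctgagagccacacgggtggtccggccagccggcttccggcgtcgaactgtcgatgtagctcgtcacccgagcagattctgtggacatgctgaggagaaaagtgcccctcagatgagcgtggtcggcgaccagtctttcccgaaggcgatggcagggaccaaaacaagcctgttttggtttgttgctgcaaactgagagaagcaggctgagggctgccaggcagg
Per2: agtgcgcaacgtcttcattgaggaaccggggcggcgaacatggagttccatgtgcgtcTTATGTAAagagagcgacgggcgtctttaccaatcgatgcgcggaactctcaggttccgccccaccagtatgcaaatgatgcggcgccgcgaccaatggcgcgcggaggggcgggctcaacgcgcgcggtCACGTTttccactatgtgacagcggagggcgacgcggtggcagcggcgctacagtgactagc
The Per2 window held a D-box 192 bases and an E-prime box 62 bases before the start, written in capitals in that order. The Per1 and Per3 windows held none of the 5 motifs, which says only that these letters are not in these 250 bases.

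Among 33469 RefSeq promoter windows of this length, 5.59% held an E-box, 4.07% an E-prime box, 1.59% a cAMP response element, 2.04% a D-box and 9.47% a ROR element. Of the other clock genes, Arntl (listed in RefSeq as Bmal1) held a ROR element 16 bases before its start, the element through which REV-ERB proteins are known to repress it. Cry2 held an E-prime box at 212 bases. Nr1d1 has 2 listed starts, with an E-prime box 174 bases before the first and an E-box 191 bases before the second. Nr1d2, Dbp and Clock held no match, and Cry1 was not matched to an entry. A match is a description of the letters and not a site shown to be bound.

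Transcripts of the Period genes, which encode the partners of CRY in the repressor complex, were not all lower. Per1 fell by 21.0% and the summed counts of Per3 fell by 20.1%, whereas Per2 was within the spread of the libraries. Of the 7 annotated clock gene rows that passed the filter on low counts, 1 was called, in the lower direction, beside 15.2% of all 15513 features tested (7.19% lower and 8.03% higher). The other 6 were not called at an adjusted p of 0.05. The median log2 fold change of the 7 rows was -0.10, beside 0.002 for all features. With the counts of unannotated transcripts added, the median over 8 loci was -0.04, with 4 negative and 4 positive. A share of 1 gene in 7 is near the background, so the count itself is no result about the clock genes.

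Per1 (ENSRNOG00000007387, chr10:55687050-55695994, plus strand, Rnor_6.0) is the Period gene known to respond most quickly to cAMP, serum and glucocorticoids. In si-NC libraries 1 to 3 it held 457, 500 and 476 counts, and in si-DYRK1A libraries 1 to 3 it held 364, 368 and 378. After scaling by library size and TMM factor these were 43.8, 42.3 and 39.8 CPM against 32.0, 34.7 and 32.7 CPM. Every si-DYRK1A library lay below every si-NC library, as it did, in either direction, for 31.5% of all features tested. The means were 42.0 ± 2.03 CPM and 33.1 ± 1.37 CPM (SD, n = 3), and the log2 fold change was -0.34 (SE 0.0773, 95% confidence interval -0.50 to -0.18, adjusted p = 0.00386, edgeR). By exact permutation, two-sided, p was 0.1, the smallest that 3 libraries against 3 can give. The fall was called with each library left out in turn and with DESeq2 and limma-voom, over a range of -0.39 to -0.31, and missed the threshold only with limma on log2(FPKM + 1) without a filter on low values (adjusted p = 0.0658).

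Of the endothelial markers, 3 of 6 tested fell as Per1 did, beside 7.19% of all features. The summed level of the list was 169.7 to 188.5 CPM in the si-NC libraries and 137.8 to 143.7 CPM in the si-DYRK1A libraries, and none of the 6 was at 0. Tek, Tie1 and Cdh5 were those that fell, while Kdr was at -0.01 (adjusted p = 0.954, edgeR), Emcn at 0.03 (adjusted p = 0.922) and Vwf at -0.53 (adjusted p = 0.0719) on the log2 scale. The summed fibroblast level given above was lower as well through Col1a1, which was not called (14341 against 11113 CPM, adjusted p = 0.0869), whereas the fibroblast markers called were higher and the median of that list was 0.20 on the log2 scale. The part of these levels in the lower Per1 and Per3 counts was not tested. In cultures read as a whole, fewer cells of a type and less RNA per cell cannot be told apart.

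Per2 (ENSRNOG00000020254, chr9:98555169-98597359, minus strand), the Period gene most often used as a reporter of rhythms, was at 70.2, 68.0 and 57.8 CPM in the si-NC libraries and 66.1, 69.8 and 65.2 CPM in the si-DYRK1A libraries. The groups overlapped, with the third si-NC library lowest of all 6. The log2 fold change was 0.04 (95% confidence interval -0.11 to 0.19, adjusted p = 0.786, edgeR), an interval that lies above the estimate for Per1.

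Per3 (ENSRNOG00000018413, chr5:168086998-168123395, minus strand), which is not needed for rhythms in most tissues, had its counts split between its own row and an unannotated transcript (chr5:168086000-168123030, minus strand) that covers 99.0% of the gene. The annotated row of the si-NC libraries held 105, 97 and 85 counts, and that of the si-DYRK1A libraries 65, 93 and 75, which overlapped (log2 fold change -0.27, adjusted p = 0.365, edgeR). The transcript held more, with 203, 233 and 226 counts against 182, 169 and 159. These were 19.5, 19.7 and 18.9 CPM against 16.0, 15.9 and 13.8 CPM. The groups did not overlap, as for 31.5% of all features tested. The log2 fold change of the transcript was -0.35 (SE 0.106, 95% confidence interval -0.57 to -0.13, adjusted p = 0.0285, edgeR). It was the 1 called of 3 unannotated transcripts tested, beside 15.2% of all features, a count too small to be a result about them. The call was lost in 8 of 17 alternatives, among them DESeq2 (adjusted p = 0.0807). It was also lost without si-NC replicate 1 (0.0757) or 2 (0.0721) and without si-DYRK1A replicate 2 (0.0602) or 3 (0.158).

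Summed over both rows, the Per3 locus of the si-NC libraries held 308, 330 and 311 counts, and that of the si-DYRK1A libraries 247, 262 and 234. The groups did not overlap, as for 31.5% of all features tested, at 27.8 ± 1.77 CPM and 22.2 ± 2.25 CPM (SD, n = 3). The log2 fold change was -0.32 (SE 0.0963, 95% confidence interval -0.52 to -0.12, adjusted p = 0.0247, edgeR). This call was less firm than that of Per1, since it was lost with DESeq2 (adjusted p = 0.0605), without si-NC replicate 1 (0.114) and without si-DYRK1A replicate 1 (0.0863) or 3 (0.136). With loci summed in this way, 2 of 8 clock loci were called, both lower, beside 15.2% of all 15511 features tested in either direction, and 6 were not.

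**Figure D1:**
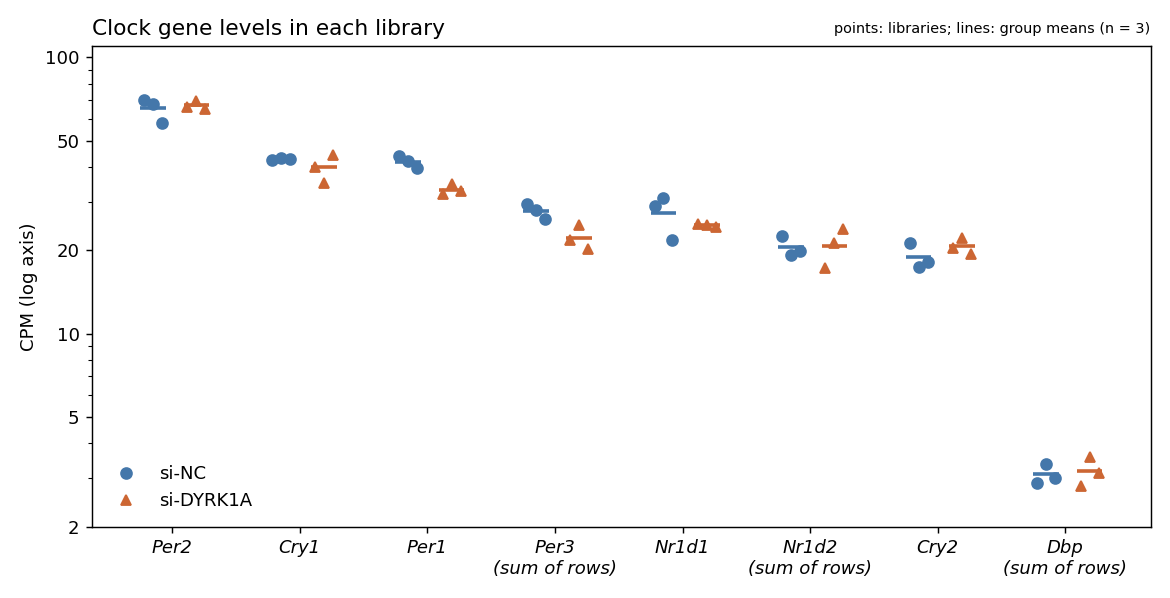
Level of each clock gene that passed the filter, in CPM on a log axis, with 1 point per library (blue circles, si-NC; orange triangles, si-DYRK1A) and lines at the group means (n = 3 libraries). Per3, Nr1d2 and Dbp are sums of the gene row and the unannotated transcript over it. The groups are apart for Per1 and for the summed Per3 counts, as for 31.5% of all features tested, and overlap for the other 6 loci.

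The Cryptochromes, the repressors proper of CLOCK and BMAL1, differed by less than the spread between libraries. Cry1 (ENSRNOG00000006622, chr7:24534615-24634097, plus strand) was at 42.7, 43.3 and 43.0 CPM in the si-NC libraries and 40.2, 35.1 and 44.5 CPM in the si-DYRK1A libraries. The si-NC libraries lay close together and inside the range of the si-DYRK1A libraries, and the log2 fold change was -0.10 (95% confidence interval -0.28 to 0.07, adjusted p = 0.452, edgeR). Cry2 (ENSRNOG00000007478, chr3:81314149-81344110, minus strand), whose protein is the DYRK1A substrate, was at 21.3, 17.4 and 18.1 CPM against 20.4, 22.2 and 19.4 CPM. These ranges overlapped, with a log2 fold change of 0.13 (95% confidence interval -0.09 to 0.35, adjusted p = 0.479, edgeR). The interval excludes a fall of the size seen for Per1 and leaves room for a ratio of up to 1.27. An unannotated transcript that runs over Cry2 and 3 other genes of its strand held 4 counts in all and was not added to it.

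The REV-ERB genes, which encode the repressors of Arntl, were not called either. Nr1d1 (ENSRNOG00000009329, chr10:86683875-86690815, minus strand) was at 29.1, 31.0 and 21.7 CPM in the si-NC libraries and 24.9, 24.7 and 24.4 CPM in the si-DYRK1A libraries. The third si-NC library was the lowest of the 6 and the first and second were the highest. The log2 fold change was -0.14 (95% confidence interval -0.37 to 0.09, adjusted p = 0.441, edgeR), and its size rested on single si-NC libraries. Without si-NC replicate 3 it was -0.29 and called (adjusted p = 0.0407), without replicate 2 it was -0.04 (adjusted p = 0.872) and without replicate 1 it was -0.10 (adjusted p = 0.703). The end of Nr1d1 overlaps Thra, the thyroid hormone receptor gene on the opposite strand, over 1059 bases (chr10:86683875-86684933). The unannotated transcript over Thra fell, at -0.27 on the log2 scale (adjusted p = 0.0176, edgeR), and since the use of strand in counting is not given in the sources used here, reads of the shared bases cannot be told apart.

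Nr1d2 (ENSRNOG00000046912, chr15:8730871-8757165, plus strand) was at 13.4, 10.3 and 10.4 CPM in the si-NC libraries and 10.0, 13.0 and 15.3 CPM in the si-DYRK1A libraries (log2 fold change 0.17, adjusted p = 0.519, edgeR). An unannotated transcript over 66.8% of the gene was at 9.20, 8.88 and 9.62 CPM against 7.30, 8.19 and 8.65 CPM. Here the groups did not overlap, as for 31.5% of all features, but the difference of -0.20 on the log2 scale was not called (adjusted p = 0.432, edgeR). The row and the transcript differed in sign, and their sum gave a log2 fold change of 0.02 (95% confidence interval -0.22 to 0.26, adjusted p = 0.946).

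Dbp (ENSRNOG00000021027, chr1:101687855-101692846, plus strand), a transcription factor whose level in many tissues is among the most strongly rhythmic, was counted almost wholly on an unannotated transcript. Its own row held 0, 1 and 0 counts with si-NC and 1, 0 and 2 with si-DYRK1A. The transcript (chr1:101687896-101692845) held 30, 39 and 36 counts against 31, 38 and 34. The sum was at 3.09 ± 0.262 CPM and 3.17 ± 0.385 CPM (SD, n = 3), overlapping, with a log2 fold change of 0.03 (95% confidence interval -0.46 to 0.52, adjusted p = 0.952, edgeR). At this depth a change of Dbp as large as that of Per1 lies within the interval.

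The activators were below the filter on low counts. Arntl (ENSRNOG00000014448, chr1:178039063-178137465, plus strand) held 0, 2 and 0 counts with si-NC and 3, 0 and 0 with si-DYRK1A, and the unannotated transcript over it 1, 3 and 2 against 3, 0 and 7. Clock (ENSRNOG00000002175, chr14:34446616-34502218, plus strand) was at 0 in every library, and the transcript over it, which has the same start and end, held 1, 1 and 6 against 4, 3 and 6. With no filter, 9 clock gene rows and 10 locus sums were tested, and Per1 and the Per3 sum were again those called. The limit that a count of 0 allows, 3 counts, was 0.251 to 0.288 CPM. A low count on a covered gene does not show that the gene was silent. Of 6213 protein-coding genes with at least 95% of their span under an unannotated transcript, 71.1% had under 10 counts summed over all libraries. The share was 38.1% among 14871 genes with no such transcript on their strand. How reads that match both rows were counted is not given in the sources used here.

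**Figure D2:**
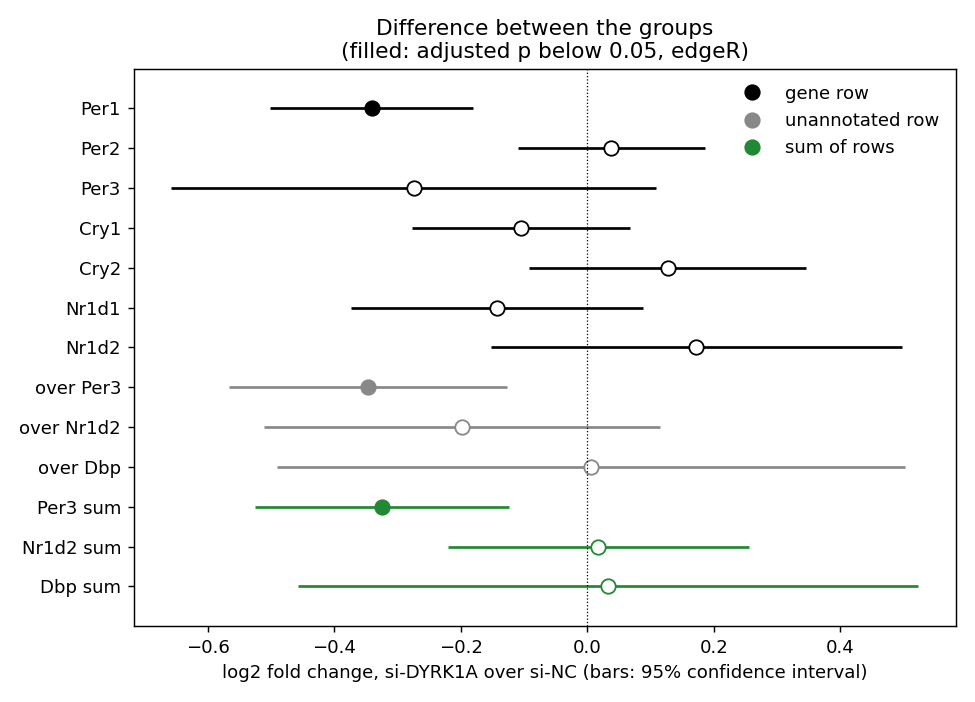
Log2 fold change of si-DYRK1A over si-NC with its 95% confidence interval (edgeR, n = 3 libraries per group) for the 7 clock gene rows tested, the 3 unannotated transcripts tested and the 3 sums of both. Filled points have an adjusted p below 0.05 over all features tested: Per1 at -0.34, the transcript over Per3 at -0.35 and the Per3 sum at -0.32. All other intervals include 0.

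Levels can be ordered between genes only per length, here as the FPKM values of the authors, which divide by gene length and library size. In the si-NC libraries Cry1 was highest at 14.6 ± 0.153 FPKM (SD, n = 3), above Per2 at 11.2 ± 1.13 FPKM without overlap. Per2, Nr1d1 at 10.6 ± 1.90 FPKM and Per1 at 10.3 ± 0.484 FPKM overlapped and do not have a clear order. Below them, each apart from the one above, were Cry2 at 4.74 ± 0.499 FPKM and Nr1d2 at 2.45 ± 0.376 FPKM. The transcript over Per3 (2.38 ± 0.0532 FPKM) overlapped Nr1d2, and the Per3 row was at 1.30 ± 0.227 FPKM, overlapping the transcript over Nr1d2 at 1.29 ± 0.0503 FPKM. The transcript over Dbp was the lowest of those tested at 0.879 ± 0.0646 FPKM. For comparison, the median of all features tested was 4.12 FPKM. The repressors Cry1, Per2, Per1, Nr1d1 and Cry2 lay above the median and the rows and transcripts of Per3, Nr1d2 and Dbp below it. The counts of Per3, Nr1d2 and Dbp are split between row and transcript, so each of these values is part of a locus and does not rank the gene.

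The ratio of a pair of genes within a library does not depend on how libraries are scaled, and 7 such ratios were computed, chosen after the values had been seen. Per1 over Per2 was 0.624, 0.622 and 0.689 in the si-NC libraries and 0.484, 0.497 and 0.502 in the si-DYRK1A libraries. Per1 over Cry2 was 2.06, 2.43 and 2.19 against 1.57, 1.56 and 1.69. The summed Per3 counts over Per2 were 0.421, 0.410 and 0.450 against 0.328, 0.354 and 0.311. In these 3 ratios the groups did not overlap, and the differences were -0.38, -0.47 and -0.37 on the log2 scale (exact permutation p = 0.1 each, the smallest possible and not adjusted over the 7). Per1 and the Per3 sum kept closer to each other, with a ratio of 1.48, 1.52 and 1.53 in the si-NC libraries and 1.47, 1.40 and 1.62 in the si-DYRK1A libraries, which overlapped. The ratios Per1 over Cry1, Per1 over Nr1d1 and Cry2 over Cry1 also overlapped between the groups.

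**Figure D3:**
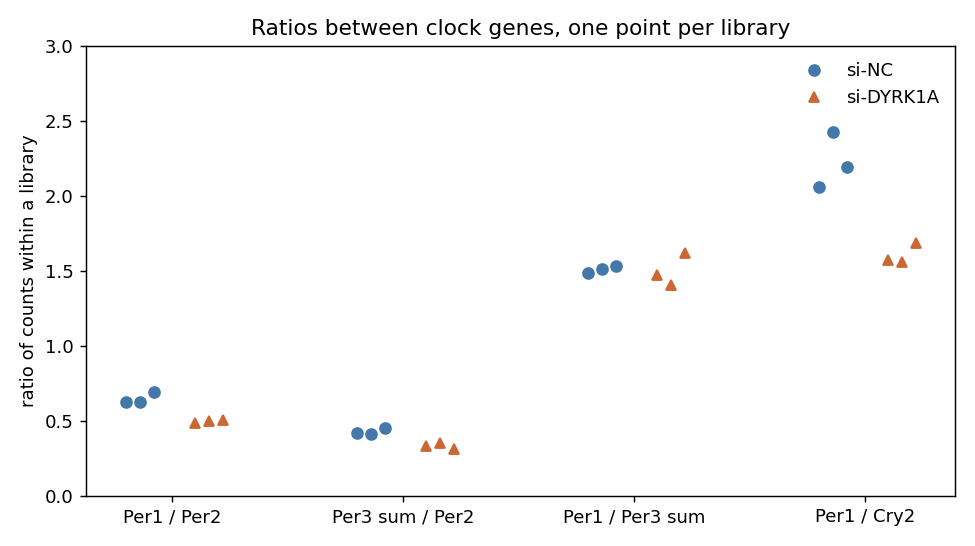
Ratio of counts of 2 clock genes within a library, from 0 upward, with 1 point per library (blue circles, si-NC; orange triangles, si-DYRK1A). Per1 over Per2, the Per3 sum over Per2 and Per1 over Cry2 are lower in all 3 si-DYRK1A libraries than in any si-NC library, whereas Per1 over the Per3 sum overlaps.

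**Figure D4:**
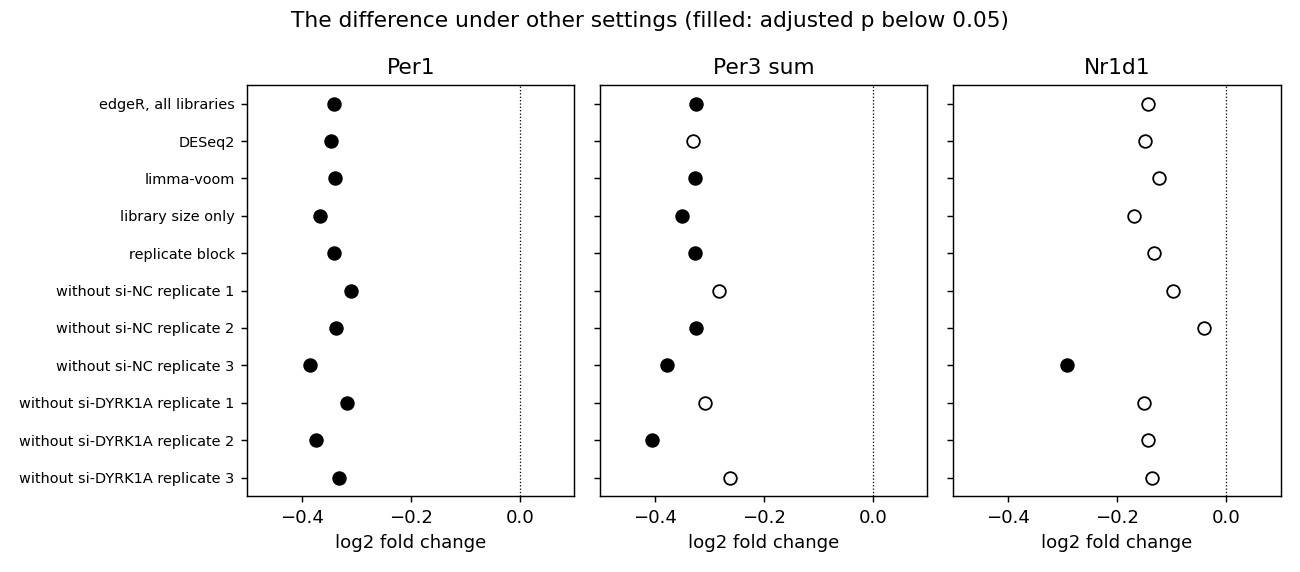
Log2 fold change of si-DYRK1A over si-NC for Per1, the Per3 sum and Nr1d1 under the edgeR test with all libraries and under 10 other settings, each a row. Filled points have an adjusted p below 0.05: all for Per1, the majority for the Per3 sum, and for Nr1d1 only the setting without si-NC replicate 3.

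Among annotated genes whose log2 CPM averaged 1 or more, those whose log2 CPM followed that of Per1 most closely were Sema4f, Thsd1 and Dock9, with Pearson correlations of 0.998, 0.996 and 0.995 over the 6 libraries. This is a description of 6 points that fall into 2 groups of 3, and 540 of 8093 genes had a correlation above 0.9 with Per1. Sema4f, a semaphorin, was at -1.02 on the log2 scale (adjusted p = 0.00101, edgeR), and Dock9, an activator of CDC42, one of -0.25 (adjusted p = 0.0198). Thsd1 was at -0.29 and was not called (adjusted p = 0.168).

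A further 70 genes were read, in lists of clock partners, modifiers and outputs and of genes that share signal or glucocorticoid inputs with Per1. By name 68 were matched, and 40 passed the filter. Of these, 4 rose and 1 fell, which is 12.5% beside 15.2% of all features tested, with a median log2 fold change of 0.05 beside 0.002. Many of the 70 genes lie under an unannotated transcript. With loci summed, a choice made after the data had been seen, 56 were tested, 4 rose and 3 fell, again 12.5% beside 15.2%. Of the genes called, Egr1, Sik1 and Ddit4, and Fos as a summed locus, come from the lists of shared inputs and not from those of the clock.

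None of the partners of the core loop was called, 0 of 7 rows and 0 of 8 loci, among them Npas2, Arntl2, Rora, Bhlhe40, Bhlhe41 and Ciart (edgeR, with 0 rows and 1 locus at an unadjusted p below 0.05, and 0 rows by DESeq2 and limma-voom). The factors that bind D-boxes beside DBP, namely Tef, Hlf and their opponent Nfil3, gave 0 of 2 rows and 0 of 3 loci (edgeR, 0 at an unadjusted p below 0.05 and 0 by DESeq2 and limma-voom). For the kinases and ubiquitin enzymes that set the lifetime of PER and CRY it was 0 of 12 rows and 0 of 17 loci (edgeR, with 1 row and 2 loci at an unadjusted p below 0.05, and 0 rows by DESeq2 and limma-voom). The counts called in these lists stand beside 15.2% of all features tested, and with so few genes they are no result about a list. A few of the kinases are given for their role, chosen after their values were seen. Gsk3b, the kinase that acts on CRY2 after DYRK1A, was at 136, 126 and 133 CPM in the si-NC libraries and 127, 116 and 125.5 CPM in the si-DYRK1A libraries, which overlapped (log2 fold change -0.10, adjusted p = 0.241, edgeR). Csnk1d and Csnk1e, the casein kinases that phosphorylate PER proteins, were at -0.62 (adjusted p = 0.159) and 0.22 (adjusted p = 0.408) as summed loci.

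Of the coactivators and corepressors, 1 of 5 rows rose and, with loci summed, 1 of 9 rose and 1 fell. Of all features tested, 8.03% were higher and 7.19% lower, and with so few genes these counts are no result about the list. Nono, which binds PER proteins, was at 595, 587 and 596 CPM in the si-NC libraries. It was at 694, 652 and 663 CPM in the si-DYRK1A libraries (log2 fold change 0.18, adjusted p = 0.00452, edgeR). These groups did not overlap, as for 31.5% of all features tested. Kat2b, an acetyltransferase that joins CLOCK at promoters, fell as a summed locus from 39.5 ± 2.14 CPM to 31.8 ± 1.89 CPM (SD, n = 3; log2 fold change -0.31, adjusted p = 0.00972, edgeR). Of the output genes 1 of 7 rows rose, beside the same 8.03% of all features. It was Wee1, a kinase that holds back entry into mitosis, at 74.0, 66.6 and 72.2 CPM against 80.5, 89.0 and 90.0 CPM (log2 fold change 0.29, adjusted p = 0.00279, edgeR).

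Genes induced by signals that are also known to induce Per1 were called in both directions. Of the rows, 1 of 4 was higher and 1 lower, and of the loci, 1 of 8 was higher and 2 lower. Of all features tested, 8.03% were higher and 7.19% lower. Egr1, an immediate early factor, was at 766, 755 and 722 CPM in the si-NC libraries and 349, 386 and 391 CPM in the si-DYRK1A libraries (log2 fold change -0.99, adjusted p = 7.2e-12, edgeR). Fos, as a summed locus, fell from 21.8 ± 1.61 CPM to 13.5 ± 1.77 CPM (SD, n = 3; log2 fold change -0.69, adjusted p = 0.000197, edgeR). Sik1, a kinase known to limit the induction of Per1, rose from 94.1, 104 and 83.0 CPM to 125, 123 and 122 CPM (log2 fold change 0.40, adjusted p = 0.000305, edgeR). Of the glucocorticoid receptor targets 1 of 4 rose, beside the same 8.03% of all features. It was Ddit4, an inhibitor of mTORC1 signalling, which differed by 0.26 on the log2 scale (adjusted p = 0.00358, edgeR).

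**Figure D5:**
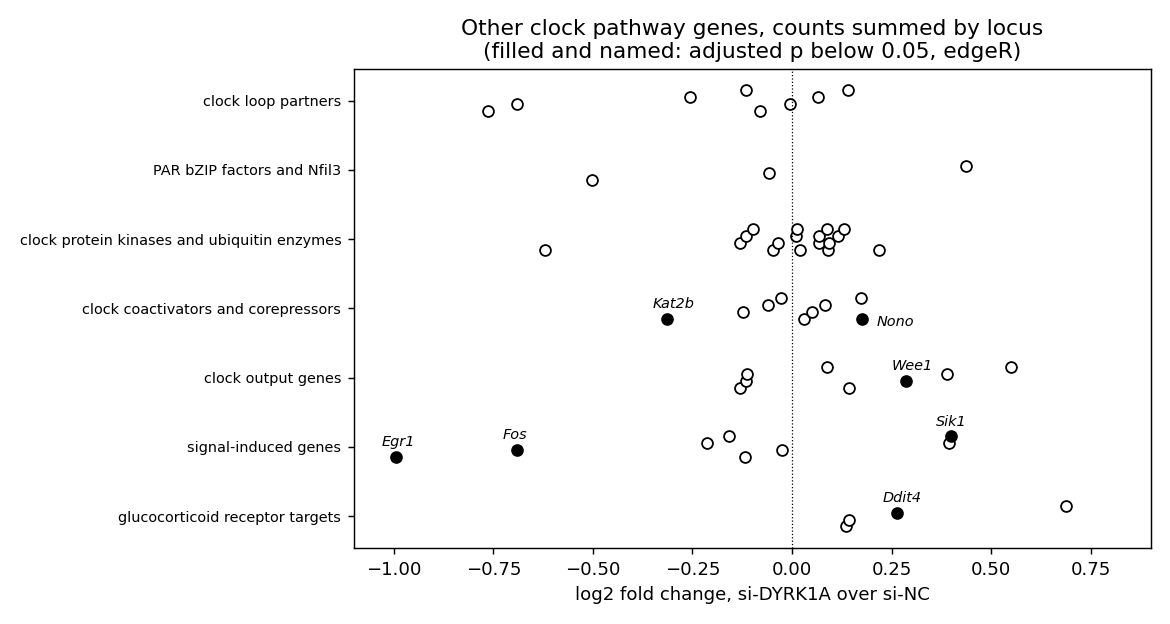
Log2 fold change of si-DYRK1A over si-NC for the 56 other listed genes tested, with counts summed by locus, in 7 lists (a gene of 2 lists is drawn in each). The lists of signal-induced genes and of glucocorticoid receptor targets hold genes that share inputs with Per1. Filled and named points have an adjusted p below 0.05 (edgeR): Nono, Wee1, Sik1 and Ddit4 higher and Kat2b, Fos and Egr1 lower. No point is filled in the lists of loop partners, of D-box factors or of kinases and ubiquitin enzymes.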

How the data were processed

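Total RNA for the 6 libraries was sequenced after mRNA enrichment. Per the study's methods, HISAT2 was the aligner and Rnor_6.0 the genome of the authors, while the submitters' processing notes name Bowtie 0.12.2 and mm8, and this difference was not resolved. The authors deposited raw counts per gene and FPKM values. Neither the counting tool nor the annotation release nor the strand setting is named in any source used here. The clock genes, lists and tests were chosen with earlier results of these data known. Counts of the whole table were tested with edgeR 4.0.16 in R 4.3.3 (quasi-likelihood, TMM, robust fit, filterByExpr with a minimum count of 10 and a total of 15), two-sided, with Benjamini-Hochberg adjustment and a threshold of 0.05. CPM were scaled by TMM. Unannotated transcripts overlapping a gene on its strand and no other annotated gene of that strand were summed with it (GenomicRanges 1.54.1). All clock genes and their transcripts are named, and, of the lists, the genes called, at most 3 per list. Alternatives used DESeq2 1.42.0, limma 3.58.1, other scalings, filters, FPKM with pseudocounts of 1 or 0.1 (FPKM above 0.5), and each library left out. Promoter windows are from RefSeq. Replicate pairs differed by more than sampling noise, with a chi-square of 2.49 to 5.87 per degree of freedom. The scripts were tested on simulated counts.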

Additional observations from a re-analysis of the deposited data

How the results depend on the processing

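Per1 was called in 17 of 18 alternatives and the Per3 sum in 11 of 15. Of the 15, the setting limited to transcripts over at least 50% of a gene could not differ, since each summed transcript covers 66.8% or more. Of all features, 2360 were called, against 1199 with limma on log2(FPKM + 1), 1180 with log2(FPKM + 0.1), 591 with log2(FPKM + 1) and no filter, 1307 at an adjusted p below 0.01 and 1614 to 2210 with a library left out; with library size only, 1063 rose and 1339 fell (44.3% higher, in place of 52.8%). Clock gene rows called were 1, but 0 with log2(FPKM + 1) and no filter, and 1 to 2 with a library left out (Nr1d1 joined without si-NC replicate 3). Unannotated transcripts called were 1, but 0 with DESeq2, in the 3 FPKM settings and at an adjusted p below 0.01, and 0 to 1 with a library left out. Loci called were 2, but 1 with DESeq2 and at an adjusted p below 0.01, and 1 to 3 with a library left out. List genes called were 5, but 1 with log2(FPKM + 1) and no filter.

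Signs turned only for differences near 0, none of them called: Per2 (-0.0509 without si-NC replicate 3; -0.0509 to 0.0905 with a library left out), the transcript over Dbp (-0.0057 with limma-voom, -0.0201 with library size only, -0.0035 with no filter, -0.0014 with log2(FPKM + 0.1), and -0.1119 to 0.0867 with a library left out), the Nr1d2 sum (-0.0086 with library size only, and -0.0972 to 0.1354 with a library left out) and the Dbp sum (-0.0604 to 0.1118 with a library left out). The cause was not tested. With a library left out, differences that were not called moved by over 1.5 times without a change of sign for the Per3 row (-0.4661 to -0.1357), Cry1 (-0.1899 to -0.0215), Cry2 (0.0677 to 0.2148), Nr1d1 (-0.2914 to -0.0402) and Nr1d2 (0.0193 to 0.3217). Replicate numbers did not pair the libraries (correlations of deviations 0.0578, -0.0261 and -0.0041), and not every library correlated best with its own number. With the replicate block 2269 features were called, with Per1 again the 1 clock gene row called. Depth limits Dbp, Arntl and Clock, where 3 counts are 0.251 to 0.288 CPM, and intervals cover differences between 3 libraries only.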

Other observations

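The clock genes differed in how far libraries of the same group lay apart. Among features of similar level, the within-group SD of log2 CPM stood at the 23.3 percentile for Per1 and the 21.2 percentile for the transcript over Per3, the rows that were called. It stood at the 84.8 percentile for Per2, 85.0 for the Per3 row, 78.4 for Cry1, 55.4 for Cry2, 93.7 for Nr1d1 and 91.8 for Nr1d2, so the REV-ERB rows were among the more scattered features of their level. The transcripts over Nr1d2 and Dbp stood at 9.88 and 10.4.

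The share of a locus that was counted on the unannotated transcript also differed between clock genes. It was 64.5% to 73.7% per library for Per3 (1172 of 1692 counts over all libraries, 69.3%, exact 95% binomial interval 67.0% to 71.5%), 36.1% to 48.1% for Nr1d2 (41.8%, interval 39.2% to 44.5%) and 94.4% to 100% for Dbp (98.1%, interval 95.2% to 99.5%). These intervals cover counting error only.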
